A study of Mus musculus with 12 samples.

Results

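The matrix proteases and TIMP inhibitors of mouse lung were followed through 10 genes of the 12309 tested: the metalloproteinases Mmp2, Mmp3, Mmp12 and Mmp14, the tissue inhibitors Timp1, Timp2 and Timp3, and the proteases with thrombospondin motifs Adamts1, Adamts4 and Adamts9. The members were found by gene symbol. Of the array's probe sets, 24 carried a member as their only symbol, 23 of them passed the filter on low values, and the probe set with the highest mean signal led for each gene. All 10 members were therefore in the test. Lungs of male C57BL/6 mice aged 8 to 12 weeks gave total RNA, which was read on 12 Affymetrix mouse arrays, 3 in each of 4 groups. KO-VILI was nmMLCK-/- mice ventilated for 4 h at 65 breaths per min with an end-expiratory pressure of 0 cm H2O to produce ventilator-induced lung injury, KO-SB was nmMLCK-/- mice breathing spontaneously, WT-VILI was wild-type mice ventilated in the same way, and WT-SB was wild-type mice breathing spontaneously. For the tidal volume the labels of the samples state 40 ml/kg and the design text of the series 30 ml/kg, and the study had no ventilated group at a low volume. The series text counts the 3 samples of a group as animals.

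Matrix metalloproteinases are zinc enzymes that cut collagens, laminins, proteoglycans and signalling proteins outside the cell, most of them after their propeptide is removed. ADAMTS proteases are related secreted enzymes that cut large proteoglycans such as versican and aggrecan, and TIMPs bind the active site of both families, each with its own preferences. In the lung these enzymes and their inhibitors take part in the turnover of the alveolar wall and in the entry of inflammatory cells.

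The arrays were alike over all probe sets, with correlations between arrays of 0.981 to 0.998 and array medians of 4.94 to 5.04 on the log2 scale. Markers of alveolar epithelium were bright on these arrays, with a mean log2 signal of 15.8 for Sftpc and 15.3 for Ager. Mylk, which encodes myosin light chain kinase in its smooth muscle and non-muscle forms, had 3 probe sets, which do not tell the isoforms apart here. The KO minus WT difference of Mylk under SB was -0.22, -0.70 and -0.97 log2 in the order of falling signal, with adjusted p of 0.82, 0.97 and 0.97 over all probe sets, so the arrays do not check the genotype labels. WT-SB replicate 3 and KO-SB replicate 2 stood apart from the other SB arrays in several members, and VILI minus SB differences of leading probe sets of members that move by over 1.5 times without them are given both ways.

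Ventilation with a high tidal volume went with higher RNA of 3 of the 10 members in KO lungs and of 5 of the 10 in WT lungs, and no member fell. Adamts1, Adamts9 and Timp1 rose in both genotypes, and Adamts4 and Mmp3 passed the test in WT only. Over all 12309 genes, 8.12% rose in KO lungs (20.7% were called in either direction) and 6.34% rose in WT lungs (15.4% in either direction), by limma with Benjamini-Hochberg adjusted p under 0.05. The median VILI minus SB difference of the members was 0.42 log2 in KO and 0.58 log2 in WT, and that of all genes was -0.05 log2 in each. With both genotypes averaged, 5 of 10 members rose, against 14.1% of all genes higher and 36.7% called in either direction, with medians of 0.40 log2 for the members and -0.05 log2 for all genes. The members were chosen with earlier results of these data known, so these figures describe the set and do not test it. In bulk lung RNA, a change in the number of cells that express a gene and a change in RNA per cell cannot be told apart.

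**Figure D1:**
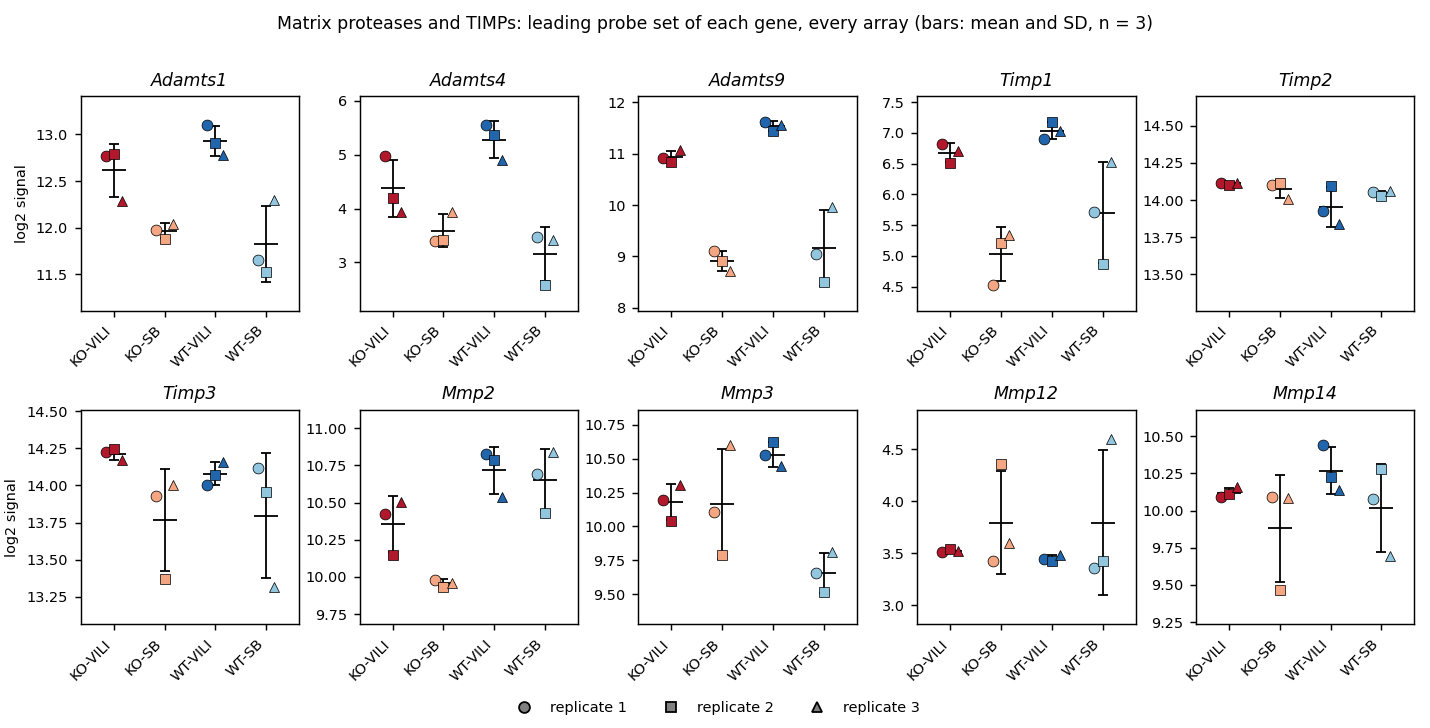
Log2 signal of the leading probe set of each member (vertical axis, scale differs by panel) on every array, by group. Points are arrays, with the shape giving the replicate number, and bars are the mean and SD of 3 arrays. The VILI arrays of Adamts1, Adamts4, Adamts9 and Timp1 lie above all SB arrays of the same genotype in KO and in WT. Those of Mmp2, Mmp14 and Timp3 do so in KO alone, and those of Mmp3 in WT alone. How many of all genes are separated in this way was not counted, so the separation is a description only. In Mmp12 and Timp3, 2 SB arrays stand apart.

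The promoters of the 4 members that passed the test in WT and have an entry in the RefSeq promoter table of build GRCm38.p6 are shown, because they hold the bases next to which transcription of these genes starts. The 250 bases before the listed start are written on the gene's own strand, with motif matches in capitals. The runs lie at chr6:92943535-92943784 (minus strand) for Adamts9, chr16:85803114-85803363 (minus strand) for Adamts1, chrX:20869916-20870165 (plus strand) for Timp1 and chr9:7445572-7445821 (plus strand) for Mmp3.
Adamts9: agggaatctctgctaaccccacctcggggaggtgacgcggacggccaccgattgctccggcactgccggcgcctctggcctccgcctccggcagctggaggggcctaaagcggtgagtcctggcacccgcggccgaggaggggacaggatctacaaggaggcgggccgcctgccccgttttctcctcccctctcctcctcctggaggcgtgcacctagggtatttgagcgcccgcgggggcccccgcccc
Adamts1: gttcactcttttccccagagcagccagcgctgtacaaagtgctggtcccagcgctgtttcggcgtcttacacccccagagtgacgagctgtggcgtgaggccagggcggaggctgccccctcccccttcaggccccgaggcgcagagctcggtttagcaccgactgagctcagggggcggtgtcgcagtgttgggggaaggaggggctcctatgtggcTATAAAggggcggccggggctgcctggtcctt
Timp1: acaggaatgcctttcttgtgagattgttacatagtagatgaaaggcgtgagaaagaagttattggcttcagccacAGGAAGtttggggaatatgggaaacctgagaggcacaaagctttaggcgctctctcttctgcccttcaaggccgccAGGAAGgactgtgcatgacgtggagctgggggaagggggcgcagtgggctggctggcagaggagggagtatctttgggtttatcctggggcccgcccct
Mmp3: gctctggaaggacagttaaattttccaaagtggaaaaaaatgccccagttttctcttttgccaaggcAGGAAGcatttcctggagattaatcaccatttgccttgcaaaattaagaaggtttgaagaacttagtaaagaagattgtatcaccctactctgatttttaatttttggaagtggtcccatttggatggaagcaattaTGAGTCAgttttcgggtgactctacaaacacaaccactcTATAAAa

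Motifs were searched on both strands over 300 bases around the start of the 8 members with an entry, counting the first start listed for Mmp12, which has 2. The AP-1 letters TGANTCA were found in 1 of the 8, Mmp3, at positions -46 to -40 from the start, and in 7.93% of 27025 promoters. The second listed start of Mmp12 also holds this motif, at -44 to -38. The ETS letters AGGAAG were in 5 of the 8 (Mmp3, Mmp12, Mmp14, Timp1 and Timp3), against 35.1% of all promoters, with 2 matches among the printed bases of Timp1. TATAAA was found in Mmp3, at -7 to -2, and in Adamts1, at -32 to -27, which makes 2 of 8 against 14.2%, and the second listed start of Mmp12 holds it at 4 to 9. The cyclic AMP element TGACGTCA was in none of the 8 and in 1.88% of all promoters. The printed bases of Adamts9 hold none of the 4 motifs. The 4 motifs share no bases in these matches. A match is a description of letters, not of bound factors.

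Adamts9, a secreted protease that cuts versican and aggrecan, showed the largest response to ventilation among the leading probe sets of the 10 members, below that of the second probe set of Adamts4 in WT. Its log2 signal was 10.91, 10.83 and 11.07 in KO-VILI lungs, against 9.11, 8.91 and 8.72 in KO-SB lungs. In WT-VILI lungs it was 11.62, 11.43 and 11.57, against 9.05, 8.50 and 9.96 in WT-SB lungs. Neither genotype's groups overlapped, and WT-SB replicate 3 was the highest of the 6 SB arrays on this probe set. The VILI minus SB difference was 2.02 ± 0.29 log2 in KO (SE, 4.07-fold, limma adjusted p = 0.0020) and 2.37 ± 0.29 log2 in WT (SE, 5.17-fold, limma adjusted p = 0.0010). The order of the group means was WT-VILI, KO-VILI, WT-SB and KO-SB, with the VILI groups not overlapping each other and the SB groups overlapping. A second probe set, 1437785_at, rose by 1.42 log2 in KO and by 1.78 log2 in WT, in a fit over all 45037 probe sets of which 6.93% were called in KO, 4.78% in WT and 15.7% averaged over genotypes. On that probe set WT-SB replicate 3 was the lowest of the 6 SB arrays, at 8.57 log2. The dimmest of the 3, 1431399_at, gave 0.85 log2 in KO and 0.63 log2 in WT, with adjusted p over all probe sets of 0.13 and 0.33.

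Adamts1, which cuts versican and aggrecan and carries thrombospondin motifs that bind the matrix, rose by less. Its log2 signal was 12.77, 12.79 and 12.29 in KO-VILI lungs, against 11.97, 11.88 and 12.04 in KO-SB lungs. WT-VILI lungs gave 13.11, 12.91 and 12.78, against 11.65, 11.53 and 12.29 in WT-SB lungs. The groups did not overlap in either genotype, although KO-VILI replicate 3 lay only just above the KO-SB arrays. The difference was 0.65 ± 0.20 log2 in KO (SE, 1.57-fold, limma adjusted p = 0.044) and 1.11 ± 0.20 log2 in WT (SE, 2.15-fold, limma adjusted p = 0.0065). Leaving out single arrays ended the call in KO in 9 of 12 refits, with limma adjusted p up to 0.14 without KO-VILI replicate 2, and with no filter on low values (0.074), so it is at the edge of the test. The call in WT held in all 12.

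Adamts4, known as an aggrecanase that also cuts versican, was dim on both of its probe sets. The leading one read 4.97, 4.20 and 3.94 log2 in KO-VILI lungs, against 3.40, 3.42 and 3.94 in KO-SB lungs. WT-VILI lungs read 5.56, 5.37 and 4.90, against 3.47, 2.57 and 3.42 in WT-SB lungs. The WT groups were well apart, while KO-VILI replicate 3 and KO-SB replicate 3 were nearly equal. The difference was 0.79 ± 0.32 log2 in KO (SE, limma adjusted p = 0.10) and 2.12 ± 0.32 log2 in WT (SE, 4.35-fold, limma adjusted p = 0.0026). The second probe set, 1455965_at, read 4.74, 4.56 and 3.82 in KO-VILI lungs, against 2.49, 2.81 and 2.75 in KO-SB lungs, and it rose by 1.69 log2 in KO (limma adjusted p = 0.0095 over all probe sets). In WT-VILI lungs this probe set read 5.98, 5.36 and 6.24, against 2.48, 2.45 and 2.45 in WT-SB lungs, a rise of 3.40 log2 (limma adjusted p = 0.00078 over all probe sets). The SB values of both probe sets lie near or below the filter of 3.06 log2, so the sizes of these differences are poorly measured. The KO call depends on the probe set. The SB means of 1455965_at, 2.68 log2 in KO and 2.46 log2 in WT, lie below the filter, which it passed through its VILI arrays. Its calls are therefore no independent sign of a rise. All 3 KO-VILI arrays were below all 3 WT-VILI arrays on the second probe set, while the leading one overlapped slightly (4.97 against 4.90).

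Timp1, a secreted inhibitor of most soluble metalloproteinases that binds the membrane-type enzyme Mmp14 poorly, rose in both genotypes. Its log2 signal was 6.82, 6.52 and 6.70 in KO-VILI lungs, against 4.53, 5.21 and 5.35 in KO-SB lungs. WT-VILI lungs had 6.90, 7.18 and 7.03, against 5.71, 4.88 and 6.52 in WT-SB lungs. No groups overlapped within a genotype, and the highest SB value was again WT-SB replicate 3. The difference was 1.65 ± 0.35 log2 in KO (SE, 3.14-fold, limma adjusted p = 0.011) and 1.33 ± 0.35 log2 in WT (SE, 2.52-fold, limma adjusted p = 0.029). The same refits ended the call in WT in 4 of 12, with limma adjusted p up to 0.083 without WT-VILI replicate 2, and with no filter on low values (0.055). Without WT-SB replicate 3 the WT difference was 1.74 log2.

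Timp2, which inhibits metalloproteinases and also bridges Mmp14 to the proenzyme of Mmp2, barely differed between groups on its leading probe set. It read 14.12, 14.10 and 14.11 log2 in KO-VILI lungs, 14.10, 14.11 and 14.01 in KO-SB lungs, 13.92, 14.10 and 13.84 in WT-VILI lungs and 14.05, 14.03 and 14.06 in WT-SB lungs. The VILI minus SB difference was 0.04 log2 in KO (95% interval -0.14 to 0.22) and -0.095 log2 in WT (-0.28 to 0.09), with limma adjusted p of 0.77 and 0.46, and 0.057 log2 in KO without KO-SB replicate 2. Of its 5 further probe sets, 1433662_s_at was lower by 0.13 log2 in WT-VILI than in WT-SB lungs (limma adjusted p = 0.046 over all probe sets). The dimmer 1420924_at gave -0.61 log2 in KO and -0.28 log2 in WT, with limma adjusted p of 0.20 and 0.69. One probe set, 1437081_at, lay below the filter at a mean of 2.24 log2.

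Timp3, the inhibitor that binds to the matrix itself and blocks ADAMTS enzymes as well as metalloproteinases, missed the test on its leading probe set. It read 14.22, 14.25 and 14.17 log2 in KO-VILI lungs, against 13.93, 13.37 and 14.00 in KO-SB lungs. WT-VILI lungs gave 14.00, 14.07 and 14.16, against 14.12, 13.95 and 13.32 in WT-SB lungs. The lowest SB value in each genotype came from the SB array that stood apart. The difference was 0.44 ± 0.21 log2 in KO (SE, limma adjusted p = 0.15) and 0.28 ± 0.21 log2 in WT (SE, limma adjusted p = 0.39). With both of those SB arrays left out it was 0.25 log2 in KO and 0.04 log2 in WT. Averaged over genotypes it was 0.36 log2 (limma adjusted p = 0.076), and 0.14 log2 without the same arrays. The probe set 1419089_at rose by 0.54 log2 in KO (limma adjusted p = 0.043 over all probe sets) and by 0.43 log2 averaged over genotypes (limma adjusted p = 0.015 over all probe sets). Its lowest SB values, 13.43 in KO and 13.41 in WT, were also on the arrays that stood apart, and it was not refitted without them. The further sets did not pass. In KO, 1449334_at gave 0.51 log2 and 1419088_at 0.09 log2, with limma adjusted p of 0.20 and 0.92 over all probe sets. Averaged over genotypes they gave 0.43 and 0.13 log2 (limma adjusted p = 0.097 and 0.74).

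Mmp3, stromelysin 1, which cuts proteoglycans, laminin and fibronectin and activates other proenzymes, passed the test in WT and not in KO. In KO-VILI lungs it read 10.20, 10.04 and 10.30 log2, against 10.11, 9.79 and 10.60 in KO-SB lungs, and the VILI arrays lay within the range of the SB arrays. The difference in KO was 0.01 log2 (95% interval -0.38 to 0.41, limma adjusted p = 0.96), and -0.17 log2 without KO-SB replicate 2. WT-VILI lungs read 10.53, 10.62 and 10.44, against 9.65, 9.52 and 9.81 in WT-SB lungs, with no overlap. The difference in WT was 0.87 ± 0.18 log2 (SE, 1.83-fold, limma adjusted p = 0.011), and this call held in all 12 refits without single arrays. All 3 KO-VILI arrays were below all 3 WT-VILI arrays, while 2 of the 3 KO-SB arrays were above all WT-SB arrays, and KO-SB replicate 2 (9.79) lay just below WT-SB replicate 3 (9.81). One probe set read the gene.

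Mmp2, gelatinase A, which cuts collagen IV and denatured collagen, read lower on every KO array than on any WT array of the same treatment. It read 10.42, 10.15 and 10.50 log2 in KO-VILI lungs, against 10.83, 10.79 and 10.54 in WT-VILI lungs. In KO-SB lungs it read 9.98, 9.93 and 9.96, against 10.69, 10.43 and 10.84 in WT-SB lungs. The KO minus WT difference was -0.36 log2 under VILI (95% interval -0.65 to -0.07) and -0.70 log2 under SB (-0.99 to -0.41), with limma adjusted p of 0.49 and 0.18, so neither passed. The second probe set, 1416136_at, gave -0.56 log2 under VILI and -0.65 log2 under SB. The VILI minus SB difference was 0.40 log2 in KO (limma adjusted p = 0.053) and 0.06 log2 in WT (limma adjusted p = 0.78), and the WT value was 0.15 log2 without WT-SB replicate 3.

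Mmp14, the membrane-bound metalloproteinase that activates the proenzyme of Mmp2, did not pass in any comparison. It read 10.09, 10.11 and 10.16 log2 in KO-VILI lungs, against 10.09, 9.47 and 10.08 in KO-SB lungs. In WT-VILI lungs it read 10.44, 10.22 and 10.14, against 10.08, 10.28 and 9.70 in WT-SB lungs. The difference was 0.24 log2 in KO (limma adjusted p = 0.38) and 0.25 log2 in WT (limma adjusted p = 0.40), and the low SB value of each genotype was that of the array that stood apart. It was 0.03 log2 in KO without KO-SB replicate 2 and 0.09 log2 in WT without WT-SB replicate 3. Its probe sets disagreed in sign in KO, where 1416572_at gave -0.30 log2 and 1440920_at 0.15 log2.

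Mmp12, macrophage elastase, was the dimmest leading probe set, with a mean of 3.64 log2 against a filter of 3.06. It read 3.51, 3.54 and 3.52 log2 in KO-VILI lungs, against 3.42, 4.36 and 3.60 in KO-SB lungs. WT-VILI lungs read 3.44, 3.43 and 3.48, against 3.35, 3.42 and 4.59 in WT-SB lungs. The 2 values above 4 were those of KO-SB replicate 2 and WT-SB replicate 3. The VILI minus SB difference was -0.27 log2 in KO (limma adjusted p = 0.57) and -0.34 log2 in WT (limma adjusted p = 0.50). Without these arrays it was 0.01 log2 in KO and 0.06 log2 in WT. Averaged over genotypes it was -0.30 log2 with these arrays and 0.04 log2 without them.

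**Figure D2:**
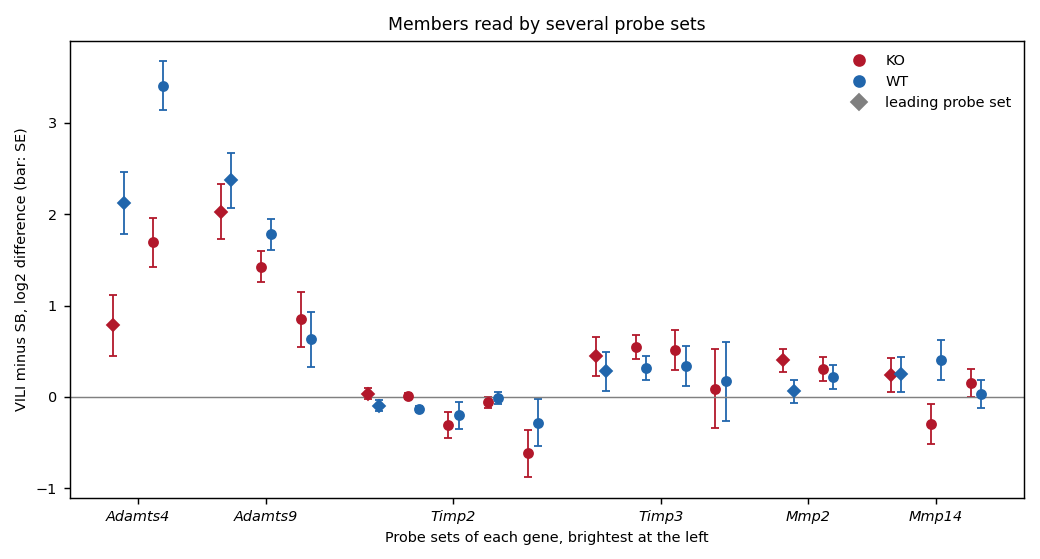
VILI minus SB log2 difference (vertical axis, bars are SE) of every probe set past the filter for the 6 members read by several, in KO and WT. Diamonds mark the leading probe set, and probe sets run from bright to dim within a gene. The sets of Adamts4 and Adamts9 all lie above 0, those of Timp2 lie at or below about 0, and those of Mmp14 lie on both sides of 0 in KO.

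Whether the response to ventilation differed by genotype was tested as the KO response minus the WT response. None of the 10 members passed limma at an adjusted p under 0.05, and neither did any of the 12309 genes (0% called), while 1 gene passed with no filter, 1 with array quality weights and 6 without WT-SB replicate 3. At an unadjusted p under 0.05, 2 of the 10 members and 619 genes (5.03%) were counted. The 2 members were Mmp3, with -0.86 log2 (95% interval -1.41 to -0.30, limma adjusted p = 0.87), and Adamts4, with -1.34 log2 (-2.33 to -0.34, limma adjusted p = 0.90). The second probe set of Adamts4 gave -1.71 log2 (limma adjusted p = 0.89 over all probe sets). With the 2 SB arrays that stood apart left out, Mmp3 gave -1.12 log2 (limma adjusted p = 0.19) and Adamts4 -1.55 log2 (limma adjusted p = 0.46), and 11 genes passed. These arrays were seen to stand apart in the members' own values. For Mmp3 they hold the lowest KO-SB value (9.79) and the highest WT-SB value (9.81). Leaving them out therefore had to enlarge its difference, and the larger value is no further sign of one. The intervals of Timp1 (-0.77 to 1.41 log2) and Adamts9 (-1.24 to 0.55 log2) leave room for a difference either way. The response difference of Adamts9 was -0.34 log2, or -0.74 log2 without the 2 SB arrays (limma adjusted p = 0.46). So a rise of Adamts4 or Mmp3 that passed in WT and not in KO is not shown to differ between the genotypes.

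Between genotypes, no member passed under VILI or under SB, against 0.106% of all genes called under VILI and 0.0487% under SB. Under VILI, the KO arrays lay below all WT arrays for 4 of the 10 members (Mmp2, Mmp3, Timp1 and Adamts9) and above all WT arrays for 3 (Mmp12, Timp2 and Timp3), on the leading probe sets. Of all genes, 9.33% lay below and 11.1% above in this way, or 20.5% in either direction. Some gaps were very small. The lowest KO and highest WT values were 14.168 and 14.160 for Timp3, 14.104 and 14.097 for Timp2, and 3.509 and 3.484 for Mmp12. Mmp12 also lies near the filter of 3.06. The highest KO and lowest WT values were 10.50 and 10.54 for Mmp2, 6.82 and 6.90 for Timp1, 10.30 and 10.44 for Mmp3, and 11.07 and 11.43 for Adamts9. Of the other probe sets past the filter, the sign was shared by 1 of 4 for Timp2, where 1420924_at gave -0.60 log2 and 1460287_at -0.28 log2, by 1 of 3 for Timp3, where 1419088_at gave -0.62 log2, and by 1 of 2 for Adamts9. Under SB, Mmp2 was the 1 member whose groups did not overlap, with KO below WT, as for 2.31% of all genes, while 4.3% had KO above WT and 6.6% did not overlap in either direction. The median KO minus WT difference of the members was -0.33 log2 under VILI and -0.01 log2 under SB, and that of all genes was 0.01 and 0.02 log2. On the leading probe sets, the largest differences of members under VILI by size were Adamts4 at -0.90 log2 (95% interval -1.60 to -0.20, limma adjusted p = 0.48) and Adamts9 at -0.60 log2 (-1.23 to 0.03, limma adjusted p = 0.60).

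Over the 12 arrays, the members fell into patterns that are given as a description, since the arrays share their groups. Timp1 followed Adamts9 (Pearson r = 0.93), Adamts1 followed Adamts4 (r = 0.92) and Adamts9 (r = 0.93), and Mmp12 ran against Timp3 (r = -0.91) and Mmp14 (r = -0.87), where the 2 SB arrays that stood apart hold the extreme values. Without those arrays Mmp12 gave r = 0.32 with Timp3 and r = -0.26 with Mmp14. Among all genes tested, those most like Adamts9 were Stc1 (r = 0.99), Fxyd5 (r = 0.98) and Btg1 (r = 0.98), and those most like Timp1 were Mab21l4 (r = 0.96), Cd69 (r = 0.95) and Slc66a2 (r = 0.95). Adamts1 was closest to Anapc15 (r = 0.99), Kdelr3 (r = 0.96) and Marchf1 (r = 0.96). Adamts4 was closest to Aldh1a3 (r = 0.96), Rap1b (r = 0.95) and Nepro (r = 0.95), and Mmp3 to Nubp2 (r = 0.91), Rerg (r = 0.87) and Nepro (r = 0.86).

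Markers of neutrophils moved with ventilation. Beside 8.12% of all genes, 8 of 9 tested markers were higher in KO-VILI than in KO-SB lungs. Beside 6.34% of all genes, 3 of 9 tested markers were higher in WT-VILI than in WT-SB lungs. Their median deviation from each gene's mean ran between 0.96 and 1.76 log2 over the KO-VILI arrays, between -2.10 and -1.44 over the KO-SB arrays, between 0.82 and 1.64 over the WT-VILI arrays and between -1.51 and 1.08 over the WT-SB arrays. The WT-SB value of 1.08 was that of replicate 3, which was also the highest SB array for Adamts1, Timp1 and the leading probe set of Adamts9, and the lowest for the second probe set of Adamts9. Markers of fibroblasts stayed within -0.17 and 0.17 log2 over all groups, with 2 of 9 lower under VILI in each genotype, beside 12.6% of all genes lower in KO and 9.03% in WT. Markers of mesothelium ran between 0.26 and 0.33 log2 over the KO-VILI arrays, between -0.98 and -0.28 over the KO-SB arrays, between 0.09 and 0.51 over the WT-VILI arrays and between 0.08 and 0.21 over the WT-SB arrays. Beside the same shares of all genes, 3 of 6 mesothelial markers were higher under VILI in KO and 1 of 6 in WT. Of 9 alveolar macrophage markers, 0 were called in KO and 2 were higher in WT. Of 10 endothelial markers, 1 was higher and 3 were lower in KO, and 1 was higher and 2 were lower in WT. Of 5 lymphocyte markers, 1 was higher in KO and 0 were called in WT. The part of these cells in the members' changes was not tested.

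Genes that work with the members were taken from 6 lists, which were also chosen with earlier results of these data known. Of 6 other metalloproteinases tested, 2 rose and 1 fell with ventilation averaged over genotypes, beside the 14.1% of all genes that rose and the 22.6% that fell, with a list median of 0.31 log2. Mmp8, the neutrophil collagenase, rose by 4.59 ± 0.56 log2 (SE, limma adjusted p = 0.00029), with a mean of 10.23 log2 in KO-VILI, 4.26 in KO-SB, 9.29 in WT-VILI and 6.07 in WT-SB lungs. Mmp9, gelatinase B, rose by 1.36 ± 0.40 log2 (SE, limma adjusted p = 0.023), a call lost without KO-VILI replicate 3 or without WT-VILI replicate 3 (up to 0.056), and its more variable probe set rose by 2.77 log2. By genotype the Mmp9 difference was 1.91 log2 in KO and 0.81 log2 in WT, where the groups overlapped. The WT value ran from 0.32 log2 without WT-SB replicate 1 to 1.63 log2 without WT-SB replicate 3. Mmp11 fell by 0.85 log2 at the edge of the test (limma adjusted p = 0.049), and its call ended in 9 of 12 refits without single arrays (up to 0.10) and was -0.39 log2 without the 2 SB arrays that stood apart.

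Of 12 other ADAMTS and ADAMTS-like genes, 3 rose and 1 fell, beside the 14.1% of all genes that rose and the 22.6% that fell. The list median was 0.05 log2. Adamtsl2 rose by 1.16 log2, Adamts8 by 0.61 log2 and Adamtsl4 by 0.50 log2, with limma adjusted p of 0.0015, 0.00025 and 0.012, and Adamtsl4 gave 0.33 log2 without the 2 SB arrays that stood apart. Adamts20, dim with group means of 2.95 log2 in KO-VILI, 3.29 in KO-SB, 2.88 in WT-VILI and 4.16 in WT-SB lungs, fell by 0.81 log2 (limma adjusted p = 0.012), and its difference in KO was -0.34 log2, or 0.08 log2 without KO-SB replicate 2. Both VILI means lie below the filter of 3.06 log2, which Adamts20 passed through its SB arrays. The size of its fall is therefore poorly measured, and the call is no independent sign of a decrease. Among 10 genes of the ADAM family, the membrane-bound relatives, 1 rose and 3 fell, shares near those of all genes. The list median was -0.13 log2. Adam8, found on myeloid cells, rose by 1.31 log2 (limma adjusted p = 0.00026). Adam33 fell by 0.75 log2 (-0.39 log2 as the mean of its probe sets), Adam22 by 0.46 log2 and Adam28 by 0.32 log2, with limma adjusted p of 0.015, 0.0041 and 0.045, and the call of Adam28 ended in 10 of 12 refits without single arrays (up to 0.10).

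Of 7 other protease inhibitors, 1 rose and 1 fell, near the 14.1% of all genes that rose and the 22.6% that fell. The list median was -0.13 log2. Reck, a membrane-anchored inhibitor of metalloproteinases, fell by 0.52 log2 averaged over genotypes (limma adjusted p = 9.4e-05), by 0.76 log2 in KO and by 0.27 log2 in WT. The WT call of Reck ended in 6 of 12 such refits, and the KO response minus the WT response was -0.49 log2 (limma adjusted p = 0.42). Serpina3n, an inhibitor of serine proteases, rose by 0.60 log2 (limma adjusted p = 0.0030). Of 12 activators and regulators, 5 rose and 1 fell, beside the same shares of all genes, with a list median of 0.33 log2. Plaur, the receptor of urokinase, rose by 1.59 ± 0.12 log2 (SE, limma adjusted p = 2.0e-05), and the matrix protein Thbs1 by 1.60 ± 0.31 log2 (SE, limma adjusted p = 0.0032). Plat, tissue plasminogen activator, rose by 1.16 log2 (limma adjusted p = 0.0047), and Pcsk5, a proprotein convertase, by 0.74 log2 (limma adjusted p = 0.0018).

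Of 26 matrix proteins that such enzymes cut or that lie beside them, 10 rose and 3 fell. Of all genes, 14.1% rose and 22.6% fell. The median of the matrix list was 0.14 log2. Col1a1, a chain of fibrillar collagen, rose by 0.98 log2 (limma adjusted p = 0.00020; 1.77 log2 on its most variable probe set), and the basement membrane chains Col4a1 and Col4a2 by 0.60 and 0.49 log2 (limma adjusted p = 0.0024 and 0.0016). Tnc, tenascin C, rose by 1.68 log2 (limma adjusted p = 0.00047; 3.86 log2 on its most variable probe set). Named after their values were seen, versican (Vcan) rose by 1.12 log2 (limma adjusted p = 0.0078; 0.61 log2 as the mean of its probe sets) and elastin (Eln) by 1.54 log2 (limma adjusted p = 0.0099; 0.96 log2 without the 2 SB arrays that stood apart), while the small proteoglycan lumican (Lum) fell by 1.43 log2 (limma adjusted p = 0.0048). Versican is the proteoglycan that Adamts1, Adamts4 and Adamts9 are known to cut. Lum fell by 2.15 log2 in KO, and its difference in WT was -0.72 log2, which did not pass and ran from -1.10 log2 without WT-VILI replicate 1 to -0.43 log2 without WT-VILI replicate 3.

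**Figure D3:**
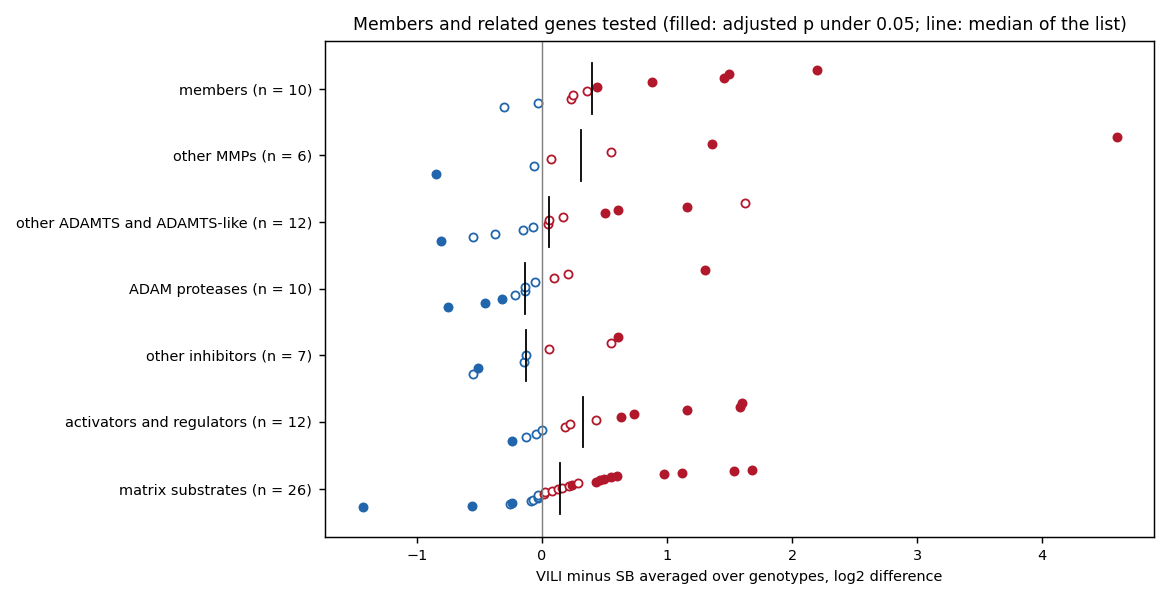
VILI minus SB log2 difference averaged over genotypes (horizontal axis) for the 10 members and for each list of related genes. Every point is a gene, filled where its adjusted p is under 0.05 over all genes, red above 0 and blue below it, and the black line is the median of the list. Mmp8 at 4.59 lies farthest to the right, and Lum at -1.43 farthest to the left.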

How the data were processed

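Total RNA of 12 mouse lung samples in 4 groups of 3 was measured on Affymetrix arrays. The authors deposited 1 log2 signal for each probe set, and MAS5 and GCRMA are named in the submitters' processing notes without the part of each. A genome build was not given in the sources used here. How these summaries treat differences between dim probe sets was not tested. Of 45037 probe sets, 34945 carry 1 gene symbol, 932 several and 9160 none in the platform annotation. Each gene was read by its single-symbol probe set of highest mean, kept where that mean reached the 40th percentile (3.06 log2), which left 12309 genes. Group means were fitted with lmFit and eBayes of limma 3.58.1 (R 4.3.3), which was tested on simulated data, and p-values were adjusted over all genes by Benjamini-Hochberg at 0.05. Further probe sets of the members were fitted and adjusted over all 45037 probe sets, with no filter. Intervals are 95% and per gene. Each p-value sets a difference of group means against the spread between samples within the groups. With arrays, their number (3 a group) limits the precision.

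The text names all 10 members, up to 4 genes of smallest p among the called ones of each related list, Mylk, and for each member called in the averaged response the 3 genes of highest Pearson r over the arrays. The members and lists were chosen with earlier results of these data known. Of 105 related genes listed, those without a named probe set or below the filter were not tested. Alternatives covered scaling, filter, probe set choice, model, array weights, a replicate block, and arrays left out. Promoter sequences are RefSeq's, build GRCm38.p6, and 8 of 10 members matched.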

Additional observations from a re-analysis of the deposited data

How the results depend on the processing

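Over all alternatives run, no called difference of a member changed sign. Calls of members were lost in 13 of 67 alternative values in KO, in 6 of 111 in WT and in 0 of 111 for the averaged response, while uncalled differences changed sign in 14 of 164 values in KO, 4 of 120 in WT, 3 of 120 averaged, 23 of 231 for the KO response minus the WT response, 10 of 231 for KO minus WT under VILI and 20 of 231 under SB. With 1 array left out, members called higher numbered 2 to 4 in KO, 4 to 5 in WT and 5 to 6 averaged, and all genes called 1232 to 3301 in KO, 933 to 2052 in WT, 3551 to 4659 averaged, 0 to 6 for the KO response minus the WT response (6 without WT-SB replicate 3), 2 to 19 for KO minus WT under VILI and 0 to 16 under SB. The lowest KO count came without KO-VILI replicate 2 and the lowest WT count without WT-SB replicate 1. A filter at the 60th percentile left 3 members called in WT and 3 averaged, since Timp1 and Adamts4 then fell below it, and 8 genes for KO minus WT under VILI. With no filter, 1 gene passed for the KO response minus the WT response and 6 for KO minus WT under VILI. Array quality weights gave 4017 genes in KO, 3836 in WT, 1 for the KO response minus the WT response, 84 for KO minus WT under VILI and 26 under SB. Without the 2 SB arrays that stood apart the last 3 counts were 11, 28 and 19, and the members called were 3 in KO, 5 in WT and 5 averaged. Same-numbered arrays of different groups correlated between -0.63 and 0.40 in their deviations from group means, over 0.1 in 3 of 18 pairs. Differently numbered arrays correlated between -0.54 and 0.71. These values show no pairing by number, but with 3 arrays a group they cannot exclude it. A replicate block gave 2 genes for KO minus WT under VILI and 0 under SB, with the KO call of Adamts1 lost (limma adjusted p = 0.080). The cause of these moves was not tested, except that fewer arrays or fewer genes enter some fits. The nearness of Mmp12 and Adamts4 to the floor of the signal limits their values.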

Other observations

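Mmp2 was lower in KO than in WT lungs on both of its probe sets, under VILI and under SB. The KO minus WT difference averaged over VILI and SB, a comparison chosen after those values were seen, was -0.53 ± 0.09 log2 (SE, limma adjusted p = 0.087), with every KO array below every WT array of the same treatment, and 11 of 12309 genes passed it. Timp1 gave -0.52 log2 (limma adjusted p = 0.72) and Adamts9 -0.43 log2 (limma adjusted p = 0.72) in the same comparison. Adamts8, a relative of Adamts1, gave -0.69 log2 for KO minus WT under SB (limma adjusted p = 0.059), with means of 8.04 log2 in KO-SB and 8.73 log2 in WT-SB lungs.

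Markers of ciliated and club epithelium, which hold none of the members, were lower under ventilation: 3 of 7 fell in KO, 4 of 7 in WT and 4 of 7 averaged over genotypes, where their median difference was -0.60 log2. Of all genes, 12.6% fell in KO, 9.03% in WT and 22.6% averaged over genotypes. Markers of smooth muscle and pericytes had 3 of 10 lower averaged over genotypes, a share near that of all genes, and those of alveolar epithelium 1 of 9.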
